A study of Mus musculus with 19 samples.

Results

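Of the 39017 genes in the count table, 5 were chosen by symbol for their type: Rn7sk, Rpph1, Rmrp, Rny1 and Rny3, which are short non-coding RNAs made by RNA polymerase III. They were picked with earlier results of these libraries known, in which Rpph1 was higher in obese than in lean hosts at midpoint, so the levels below are a description. All 5 passed the filter on low counts and are among the 16352 genes tested.

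RNA polymerase III makes small structured RNAs such as transfer RNAs, 5S ribosomal RNA and the 5 RNAs described here, which carry no poly(A) tail. The 7SK RNA (Rn7sk) is the scaffold of a nuclear particle that holds the elongation kinase P-TEFb inactive. Rpph1 is the catalytic RNA of RNase P, which trims the 5' leader of transfer RNA precursors, and Rmrp is the RNA of the related RNase MRP, which cuts ribosomal RNA precursors. Rny1 and Rny3 are Y RNAs, which bind the Ro60 protein and take part in RNA quality control and DNA replication. RNA polymerase III output is often raised in tumors.

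The cells were E0771, a single mouse mammary carcinoma line, made to express mCherry and grown as tumors from 50000 cells in a mammary fat pad; mCherry-positive cells were then sorted from each dissociated tumor. The hosts, of the strain written c57bl6, were lean (titled Chow) or obese (titled HFD), and tumors were taken at day 14 (midpoint) or day 21 (endpoint). The groups used here had 4 lean midpoint, 5 obese midpoint, 4 lean endpoint and 5 obese endpoint libraries. Cells from before implantation are not among these samples, and ages are not in the labels.

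The sequences are shown because the RNAs differ in length and base composition, which bears on every comparison below. They are the GENCODE transcripts of the mouse GRCm38 (mm10) annotation, printed as DNA from 5' to 3'. Rn7sk lies on chromosome 9 (chr9:78175303-78175633, minus strand), Rpph1 on chromosome 14 (chr14:50807449-50807767, minus strand), and the Y RNA genes on chromosome 6, Rny1 at chr6:47788069-47788180 (minus strand) and Rny3 at chr6:47781624-47781725 (plus strand). In Rn7sk the capitals mark its 3 copies of GATC, a motif known in the 7SK element that contacts HEXIM proteins. In the Y RNAs they mark the longest run of bases that both share. Rpph1, shown for its GC-rich make-up, is all in lower case. Rn7sk and Rpph1 are given by their 5' parts and the Y RNAs whole.
Rn7sk, bases 1 to 120: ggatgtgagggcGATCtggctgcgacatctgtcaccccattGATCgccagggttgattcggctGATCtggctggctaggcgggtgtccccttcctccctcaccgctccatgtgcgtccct
Rpph1, bases 1 to 150: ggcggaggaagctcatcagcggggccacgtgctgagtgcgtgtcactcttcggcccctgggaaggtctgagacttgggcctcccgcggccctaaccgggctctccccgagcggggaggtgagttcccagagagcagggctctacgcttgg
Rny1: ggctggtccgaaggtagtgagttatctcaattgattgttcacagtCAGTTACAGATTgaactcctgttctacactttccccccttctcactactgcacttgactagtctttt
Rny3: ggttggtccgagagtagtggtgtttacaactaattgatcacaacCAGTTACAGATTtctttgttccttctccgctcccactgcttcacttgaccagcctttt

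The GATC copies of Rn7sk start at bases 13, 42 and 64, all near the 5' end. The run shared by the Y RNAs has 12 bases and lies at bases 46 to 57 of Rny1 and 45 to 56 of Rny3. Both Y RNAs end in 4 T, the kind of T run at which RNA polymerase III stops. GC content was 58.0% in Rn7sk (331 bases), 67.1% in Rpph1 (319 bases), 64.2% in Rmrp (271 bases; chr4:43492788-43493058, minus strand), 43.8% in Rny1 (112 bases) and 45.1% in Rny3 (102 bases). The median of the tested genes was 49.9%, so the first 3 RNAs are GC-rich and the Y RNAs are GC-poor for this table. 7SK and Y RNAs have many near-identical pseudogene copies in mammalian genomes, and reads shared with such copies could have been split or dropped by the counting, so their absolute levels are uncertain. Rmrp overlaps the gene Ccdc107 on the opposite strand by 159 of its 271 bases, where reads could have been dropped or given to either gene. The absolute level of Rmrp is therefore uncertain as well.

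The 18 libraries held 44174080 to 56996252 counts each. The share of counts from the mitochondrial genome was 5.79% to 12.3% at midpoint and 17.1% to 24.4% at endpoint, except for lean endpoint replicate 1, where it was 44.7% and the TMM scaling factor was 0.606; that library stands apart, and the endpoint values of the members that it moves most are given with and without it. Of 6 carcinoma epithelial markers, Krt8 stood at 13.4 to 55.9 CPM (counts scaled to the library total), while Krt7 and Krt19 had no count in 15 of 18 libraries and Krt18, Epcam and Cdh1 stayed at or below 0.281 CPM. The GC slope of a library was taken on log2 levels relative to each gene's mean over the 18 libraries. It is the change in this relative level per 10 points of gene GC content over all tested genes. The slope ran from 0.110 to 0.462 in lean midpoint, from 0.341 to 1.58 in obese midpoint and from -0.907 to -0.0701 at endpoint. Libraries with a positive slope therefore read high for GC-rich genes as a class, relative to the mean of the 18 libraries.

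Rn7sk was the most abundant of the 5 RNAs. It ranked 3 among all genes by mean CPM, and Rpph1 ranked 6, whereas Rmrp ranked 3103, Rny1 11036 and Rny3 11458. Per kilobase of transcript, the mean level over the 18 libraries was 72269 CPM for Rn7sk, 24221 for Rpph1, 233 for Rmrp, 22.5 for Rny1 and 18.02 for Rny3. The 5 RNAs together took 1.02% to 9.11% of all counts in a library. Counting error was small beside these differences for the first 3: the Wilson 95% half-width was at most 0.277% of the share for Rn7sk, 1.03% for Rpph1 and 5.23% for Rmrp. For the Y RNAs it was 9.40% to 73.3% of the share for Rny1 and 11.8% to 56.3% for Rny3. In bulk samples, fewer cells with an RNA and less of it per cell cannot be told apart.

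Rn7sk varied most among the obese midpoint tumors. In the 4 lean midpoint libraries it took 2.69%, 2.15%, 2.16% and 2.72% of counts, a mean of 2.43% ± 0.318 (SD, n = 4). In the 5 obese midpoint libraries it took 2.15%, 6.68%, 4.80%, 2.63% and 4.01%, a mean of 4.05% ± 1.81 (SD, n = 5). Obese midpoint replicates 2, 3 and 5 lay above every lean library, and replicates 1 and 4 lay inside the lean range, so the groups overlapped. At endpoint the shares were lower: 0.945%, 2.33%, 1.61% and 1.35% in lean replicates 1, 2, 3 and 5 (mean 1.56% ± 0.581, SD, n = 4), and 1.23%, 1.76%, 1.53%, 1.33% and 0.999% in obese replicates (mean 1.37% ± 0.291, SD, n = 5). By group mean the order was obese midpoint, lean midpoint, lean endpoint, obese endpoint, and each group overlapped the next one in that order.

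Rpph1 had the same 3 high libraries. It stood at 4748, 4413, 5512 and 7056 CPM in lean midpoint and at 6356, 24123, 18023, 5238 and 14598 CPM in obese midpoint. Obese midpoint replicates 2, 3 and 5 were again above every other library of the table, and replicates 1 and 4 fell among the lean ones. In lean endpoint replicates 1, 2, 3 and 5 it stood at 693, 9783, 6244 and 6644 CPM, and in obese endpoint at 4692, 7038, 5057, 5314 and 3544 CPM. Lean endpoint replicate 1 was far below all others, while the remaining endpoint libraries spanned a wider range than lean midpoint and contained it.

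Rmrp, far lower than Rpph1 in counts per kilobase, followed Rpph1 in most libraries. It stood at 37.9, 38.8, 47.9 and 61.6 CPM in lean midpoint and at 54.8, 162, 159, 39.3 and 127 CPM in obese midpoint. At endpoint it stood at 30.6, 83.4, 59.3 and 54.6 CPM in lean replicates 1, 2, 3 and 5 and at 24.8, 42.1, 41.4, 37.5 and 34.6 CPM in obese replicates. Obese midpoint replicates 2, 3 and 5 were the highest of the 18 libraries for this RNA too, and the groups overlapped in each comparison.

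The Y RNAs were scarce, with 8 to 436 counts of Rny1 and 13 to 279 counts of Rny3 per library, and their pattern differed from that of the other RNAs. Rny1 stood at 2.63, 2.11, 1.86 and 1.29 CPM in lean midpoint and at 2.73, 8.71, 4.71, 2.71 and 3.17 CPM in obese midpoint, where every library was above every lean one. The gap was within counting error: obese midpoint replicate 4 (135 counts) and lean midpoint replicate 1 (137 counts) had overlapping Wilson intervals. In lean endpoint replicates 1, 2, 3 and 5 it stood at 6.11, 2.23, 1.84 and 1.32 CPM and in obese endpoint at 0.811, 1.15, 1.03, 0.167 and 0.871 CPM. All obese endpoint libraries lay below all libraries of the other groups, and the high lean endpoint library was replicate 1, the one with the lowest Rpph1. Between the diets at endpoint the gap was again within counting error. Obese endpoint replicate 2 (59 counts) and lean endpoint replicate 5 (68 counts) had overlapping Wilson intervals. Rny3 stood at 2.40, 1.87, 1.75 and 2.06 CPM in lean midpoint, at 2.19, 5.57, 3.37, 2.05 and 2.45 CPM in obese midpoint, at 3.76, 1.40, 0.574 and 0.699 CPM in lean endpoint and at 0.353, 0.644, 0.507, 0.271 and 1.17 CPM in obese endpoint. Rny3 thus shared with Rny1 the high values in obese midpoint replicate 2 and lean endpoint replicate 1.

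**Figure D1:**
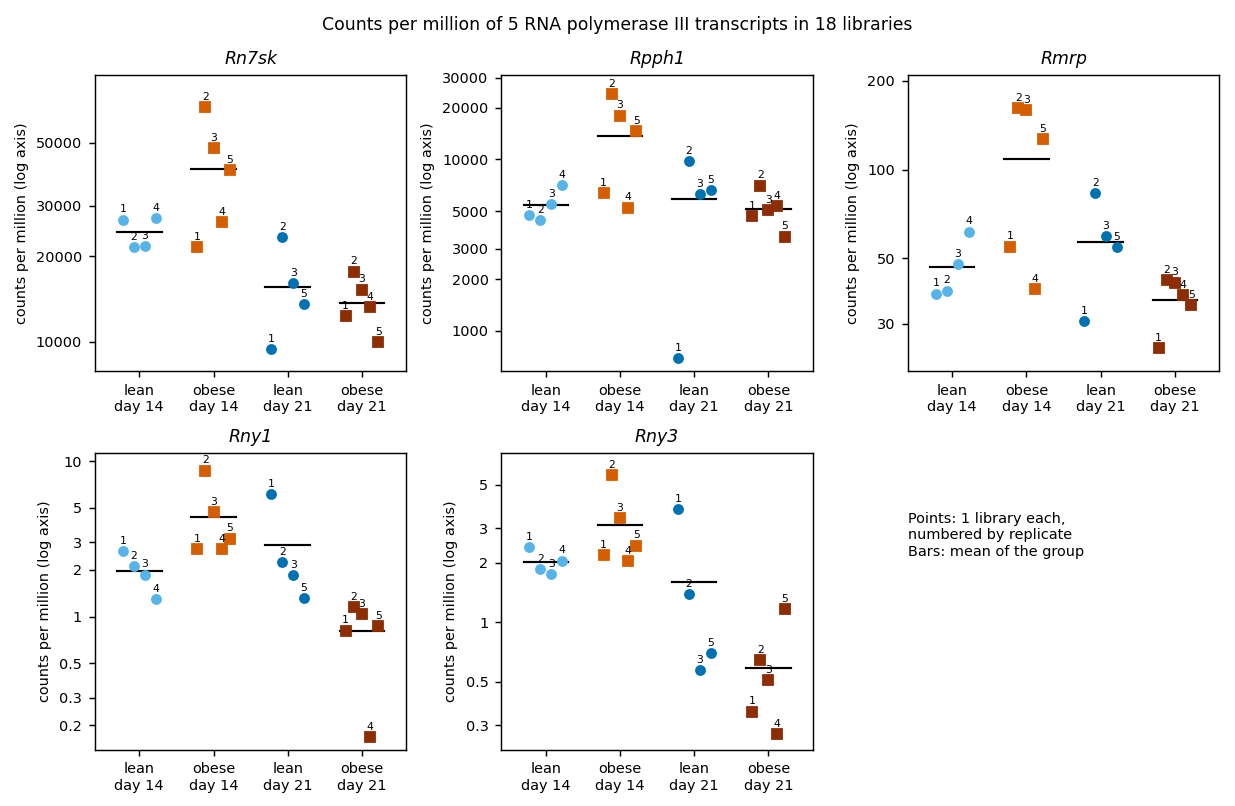
CPM of each RNA (vertical log axis) in each library, by group; points are libraries numbered by replicate and bars are group means. Obese midpoint replicates 2, 3 and 5 are the highest libraries for Rn7sk, Rpph1 and Rmrp, and all obese endpoint libraries are the lowest for Rny1.

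Obese against lean at midpoint, the contrast in which these RNAs were noticed, gave higher mean levels of all 5 in obese hosts. The log2 fold change on TMM-scaled counts was 0.98 ± 0.30 (SE) for Rn7sk, 1.58 ± 0.49 for Rpph1, 1.46 ± 0.37 for Rmrp, 1.42 ± 0.57 for Rny1 and 0.87 ± 0.57 for Rny3. Rny1 was the 1 member whose groups did not overlap, by a gap within counting error. Of all tested genes 8.41% did not overlap in this contrast, 4.77% in the higher direction, and 29.5% were called in either direction. Without obese midpoint replicate 2 the log2 fold changes of Rn7sk and Rny3 were 0.60 and 0.43. With each library corrected for gene GC content and length, the values were -0.01 ± 0.13 for Rn7sk, 0.12 ± 0.28 for Rpph1 and 0.10 ± 0.20 for Rmrp, against 1.58 ± 0.54 for Rny1 and 0.91 ± 0.53 for Rny3. The difference of the GC-rich RNAs between the diets was thus near 0 after the correction, and that of the Y RNAs was not. The correction fitted GC content first and length second, and it assumed that their parts add. Few genes of this kind bear on that assumption. Of the tested genes 510 were no longer than Rn7sk, and 51 were both as short and at least as GC-rich. The obese midpoint libraries high in Rn7sk also had the steepest GC slopes, 1.58, 1.25 and 1.07 in replicates 2, 3 and 5 against 0.341 and 0.694 in replicates 1 and 4. Their part in the levels beyond that correction was not tested.

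At endpoint no difference between obese and lean hosts passed the test for any of the 5 RNAs. The log2 fold change was -0.28 ± 0.29 (SE) for Rn7sk and -0.17 ± 0.47 for Rpph1, with an adjusted p = 0.999 for each (edgeR's quasi-likelihood test, Benjamini-Hochberg). It was -0.73 ± 0.36 for Rmrp (edgeR adjusted p = 0.989). For Rny1 it was -2.21 ± 0.57 (edgeR adjusted p = 0.618), and the groups did not overlap, as in 0.263% of the tested genes in the lower direction and 1.39% in either. The gap of Rny1 was within counting error. Rny3 gave -1.83 ± 0.59 (edgeR adjusted p = 0.954), with overlapping groups. In this contrast 0.00612% of the tested genes were called, 1 gene with edgeR (AU018091, named after its value was seen), 8 with DESeq2, and 800 at an unadjusted p under 0.05. Over the alternatives the adjusted p of Rny1 ranged from 0.0863 with DESeq2 to 1.00. Lean endpoint replicate 1 carried much of the Y RNA values: without it the log2 fold change was -1.11 for Rny1 and -0.53 for Rny3. For Rpph1 the sign depended on single libraries, with -0.51 without lean endpoint replicate 1 and 0.14 without lean endpoint replicate 2.

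Between day 14 and day 21 in obese hosts, all 5 RNAs had lower levels at endpoint. The log2 fold change was -1.58 ± 0.28 (SE) for Rn7sk, -1.44 ± 0.45 for Rpph1, -1.60 ± 0.35 for Rmrp, -2.47 ± 0.56 for Rny1 and -2.40 ± 0.57 for Rny3. Groups did not overlap for 3 of the 5 (Rn7sk, Rny1 and Rny3), as in 58.3% of all tested genes and 30.4% in the lower direction, and 73.9% of tested genes were called. After the GC and length correction the sign turned for the GC-rich RNAs, to 0.13 ± 0.12 for Rn7sk, 0.75 ± 0.26 for Rpph1 and 0.54 ± 0.19 for Rmrp. The Y RNAs kept theirs, at -3.16 ± 0.54 for Rny1 and -2.70 ± 0.54 for Rny3.

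In lean hosts the same time comparison gave smaller values of mixed sign. The log2 fold change was -0.32 ± 0.31 (SE) for Rn7sk, 0.31 ± 0.50 for Rpph1, 0.59 ± 0.38 for Rmrp, 1.16 ± 0.59 for Rny1 and 0.30 ± 0.60 for Rny3. All 5 overlapped between the times, in a contrast where 38.9% of tested genes did not and 30.9% were called. With the correction the values were 0.27, 0.81, 1.25, 0.49 and -0.18 in the same order of RNAs. Without lean endpoint replicate 1, Rny1 gave 0.03 and Rny3 -1.03 before any correction. The diet effect at endpoint minus that at midpoint was -1.26 ± 0.42 (SE) for Rn7sk, -1.76 ± 0.67 for Rpph1, -2.19 ± 0.52 for Rmrp, -3.63 ± 0.81 for Rny1 and -2.70 ± 0.82 for Rny3, and with the correction -0.14, -0.06, -0.71, -3.65 and -2.52. Without lean endpoint replicate 1 the uncorrected differences of the Y RNAs were smaller in size, -2.44 ± 0.65 (SE) for Rny1 and -1.32 ± 0.60 for Rny3, and those of Rn7sk, Rpph1 and Rmrp were -1.23, -2.02 and -2.21. These values use the midpoint libraries by which the RNAs were noticed and are given without a test.

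**Figure D2:**
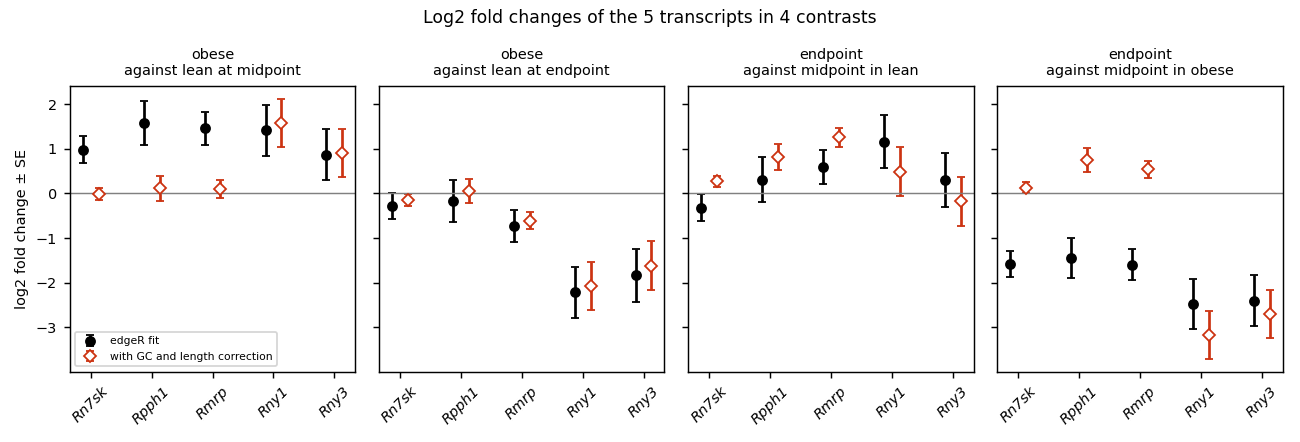
Log2 fold change ± SE of each RNA (vertical axis) in the 4 contrasts, from the edgeR fit (black circles) and with the GC and length correction (open red diamonds). At midpoint Rn7sk goes from 0.98 to -0.01 with the correction, while Rny1 goes from 1.42 to 1.58.

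The level of Rn7sk was ordered much as the GC slope over the 18 libraries, from lean endpoint replicate 1 (slope -0.905, share 0.945%) to obese midpoint replicate 2 (slope 1.58, share 6.68%). As a share of counts outside the mitochondrial genome, lean endpoint replicate 1 stood at 1.71%. It was not the lowest library by that share, since obese endpoint replicate 5 (slope -0.907) stood at 1.32%. Lean endpoint replicate 2, with the highest slope at endpoint (-0.0701), had the highest endpoint share of Rn7sk (2.33%), Rpph1 and Rmrp. At slopes below 0, Rpph1 ranged from 693 to 9783 CPM, and Rny1 in lean endpoint replicate 1 was at 6.11 CPM with a slope of -0.905. This is a description over libraries that share their depth and scaling, with no test.

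**Figure D3:**
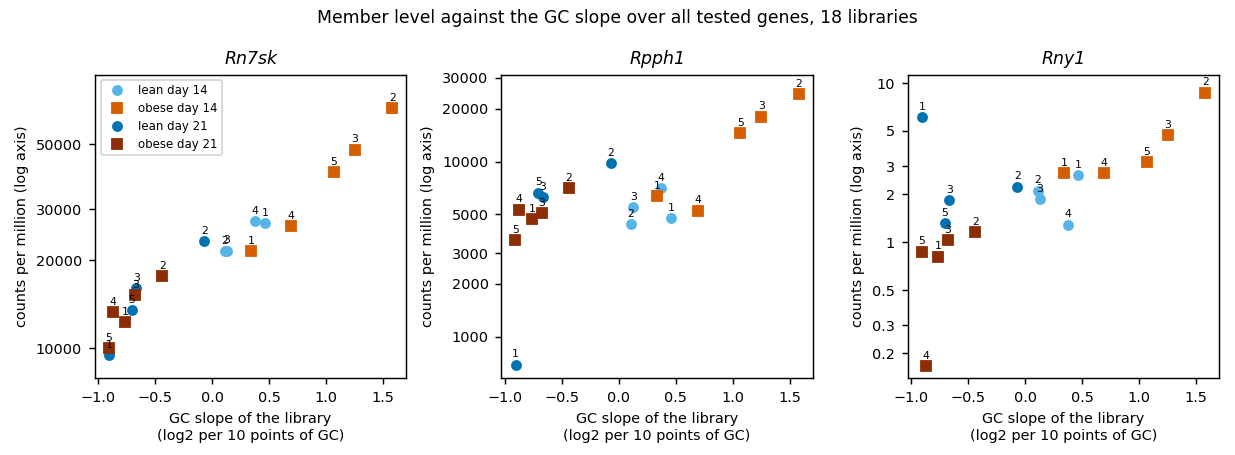
CPM of Rn7sk, Rpph1 and Rny1 (vertical log axis) against the GC slope of each library (horizontal axis, log2 per 10 points of gene GC content); each point is a library numbered by replicate, coloured by group. Rn7sk climbs with the slope over all groups, whereas lean endpoint replicate 1 sits far below the others for Rpph1 and far above its neighbours for Rny1.

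Ratios within a library do not depend on its total. Rpph1 counts per Rn7sk count were 0.224 ± 0.0399 (SD, n = 4) in lean midpoint, 0.319 ± 0.0740 (n = 5) in obese midpoint and 0.373 ± 0.0297 (n = 5) in obese endpoint. In lean endpoint replicates 1, 2, 3 and 5 the ratio was 0.0734, 0.420, 0.388 and 0.490, so replicate 1 was the lowest of all libraries and the other 3 were inside or above the obese endpoint range. Rmrp counts per 1000 Rpph1 counts lay between 5.29 and 9.77 in 17 libraries and came to 44.1 in lean endpoint replicate 1. This is a ratio of counts, and the ratio of the RNAs may differ, since reads in the overlap of Rmrp with Ccdc107 may be uncounted. Rny1 per 1000000 Rn7sk counts was 82.4 ± 24.1 (SD, n = 4) in lean midpoint, 108 ± 21.3 (n = 5) in obese midpoint and 59.7 ± 27.9 (n = 5) in obese endpoint. In lean endpoint it was 647, 95.9, 114 and 97.5 in replicates 1, 2, 3 and 5. Lean endpoint replicate 1 thus held little Rpph1 for its Rn7sk and Rmrp, and much Rny1 for its Rn7sk; its high mitochondrial share moved with these values, and its part was not tested.

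**Figure D4:**
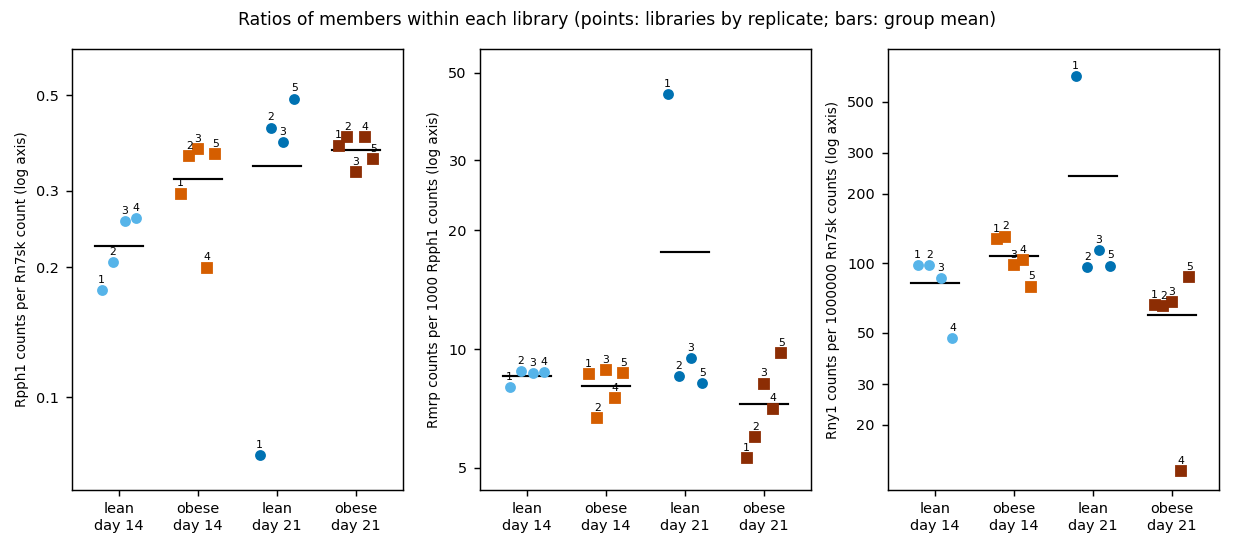
Ratios of counts between members within each library (vertical log axes), by group; points are libraries numbered by replicate and bars are group means. Lean endpoint replicate 1 lies apart in all 3 ratios, at 0.0734, 44.1 and 647.

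The genome around the members adds 2 cases of shared ground. Rpph1 and Parp2, a DNA repair enzyme gene (chr14:50807946-50821300, plus strand), start back to back with 178 bases between them. Parp2 fell in obese hosts at midpoint, from 31.1 ± 9.17 CPM (SD, n = 4) to 14.2 ± 9.51 (n = 5), with a log2 fold change of -1.02 ± 0.32 (SE, edgeR adjusted p = 0.0314), and by -0.79 with the GC and length correction (edgeR adjusted p = 0.0416). With time in obese hosts it rose by 1.43 ± 0.30 on the log2 scale (edgeR adjusted p = 0.000334), and by 1.04 with the correction (edgeR adjusted p = 0.000717). Without the correction its values had the opposite sign to those of Rpph1 in both contrasts. With it Rpph1 was at 0.12 at midpoint and at 0.75 with time in obese hosts, so in the latter the signs were the same. At endpoint Parp2 did not differ between the diets beyond the test (log2 fold change -0.01 ± 0.32, edgeR adjusted p = 0.999). The 198 bases before Rpph1, read in its direction from the promoter entry of Parp2 in RefSeq (GRCm38.p6; chr14:50807768-50807965), span this gap and the first bases of Parp2; capitals mark a match to TTTGCAT, which is the core of the octamer bound by Pou2f1, on the other strand.
Rpph1 upstream: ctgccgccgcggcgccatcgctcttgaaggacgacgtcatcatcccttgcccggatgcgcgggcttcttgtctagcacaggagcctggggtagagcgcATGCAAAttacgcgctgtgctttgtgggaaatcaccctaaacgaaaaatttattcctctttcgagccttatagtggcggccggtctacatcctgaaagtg

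With the base after the capitals the match extends to the full octamer ATTTGCAT, 100 bases before the start of Rpph1. The octamer was searched on both strands and contains TTTGCAT, so each full match counts for both. Within 200-base windows read from neighbouring promoter entries, Rmrp held the octamer, its TTTGCAT part starting 222 bases before the start of the RNA, and Rn7sk held TTTGCAT without the base that completes the octamer, starting at 223 bases. Of 32851 promoters in the table, 1.38% held the octamer and 3.28% held TTTGCAT in a window of 200 bases. A match describes these letters only. Windows for the Y RNAs were not used here.

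Rmrp overlaps Ccdc107 (chr4:43492900-43495921, plus strand) by 159 bases on the opposite strand. The strand setting of the counting is not given in the sources used here, so reads in the overlap cannot be told apart. Ccdc107 rose in obese hosts at midpoint, by 0.82 ± 0.22 on the log2 scale (edgeR adjusted p = 0.0304), and fell with time in obese hosts, with a log2 fold change of -1.58 ± 0.21 (edgeR adjusted p = 3.2e-06). In lean hosts with time it had a log2 fold change of -0.53 ± 0.23 (edgeR adjusted p = 0.0880), where Rmrp was at 0.59. With the correction its value was 0.17 at midpoint (edgeR adjusted p = 0.332), and -0.30 with time in obese hosts (edgeR adjusted p = 0.0267), where Rmrp was at 0.54. The signs of Ccdc107 and Rmrp thus differed in lean hosts and, with the correction, in obese hosts with time. Its mean level was 16.1 CPM, against 63.2 CPM for Rmrp. Near Rn7sk, C920006O11Rik (280 bases away) and Ick (3195 bases away) stood at means of 1.31 and 31.3 CPM. Arhgef39, 3083 bases from Rmrp, stood at 5.33 CPM. Rpl31-ps7, between the Y RNA genes, had 2 counts in all and was not tested.

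The protein partners of these RNAs did not move as blocks. Of 7 tested genes of the 7SK particle and P-TEFb, 2 rose and 0 fell in obese hosts at midpoint, against 16.7% and 12.8% of all tested genes. These were Cdk9, the P-TEFb kinase (log2 fold change 0.71 ± 0.23 (SE), edgeR adjusted p = 0.0346), and Mepce, which caps 7SK RNA (0.69 ± 0.23, edgeR adjusted p = 0.0365). The median over the 7 was -0.21, against 0.00 over all tested genes. With time in obese hosts 3 rose and 3 fell, where 37.8% of all tested genes rose and 36.1% fell. The cyclins Ccnt1 and Ccnt2 rose by 2.62 and 2.40 on the log2 scale and Larp7, a 7SK-binding protein, by 2.62 (edgeR adjusted p of at most 5.5e-06). Cdk9, Mepce and Hexim2 fell in that contrast, with log2 fold changes of -0.84, -1.13 and -1.24. In lean hosts Ccnt1, Larp7 and Ccnt2 rose as well, by 1.94, 1.72 and 1.57, and 0 of the 7 fell, where 21.4% of all tested genes rose and 9.5% fell. With the correction Ccnt2 did not pass the test in either (0.13 in lean, -0.15 in obese hosts). Mepce then passed it neither at midpoint (0.06, edgeR adjusted p = 0.726) nor with time in obese hosts (0.02, edgeR adjusted p = 0.874). Cdk9 kept its midpoint call with the correction (0.82, edgeR adjusted p = 0.0355). Corrected values with time in obese hosts were 0.90 for Ccnt1 and 1.98 for Larp7, both still called.

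Of 11 tested protein subunits of RNase P and RNase MRP, 3 rose and 2 fell at midpoint, where 16.7% and 12.8% of all tested genes did, with a median log2 fold change of 0.02. Pop7, Pop5 and Rpp21 rose by 0.73, 0.59 and 0.57, and Rpp38 and Rpp30 fell, with values of -1.11 and -0.95 (edgeR adjusted p of at most 0.0449). Rpp38 kept its call with the correction (-0.80), while Pop7, Pop5, Rpp21 and Rpp30 did not. In obese hosts with time 3 rose and 5 fell, against 37.8% and 36.1% of all tested genes. Among them Rpp38 rose by 2.02, and by 1.37 with the correction, while Rpp25l was at -1.47 without the correction and at -0.01 with it (edgeR adjusted p = 0.959). In lean hosts 1 rose (Rpp38, by 1.10) and 3 fell (Rpp25, Rpp25l and Pop5), against 21.4% and 9.5%.

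Among 7 tested proteins that bind or trim Y RNAs and other RNA polymerase III products, 2 rose and 0 fell at midpoint, namely Puf60 (0.61 ± 0.20 (SE), edgeR adjusted p = 0.0328) and Ptbp1 (0.50 ± 0.15, edgeR adjusted p = 0.0306), against 16.7% and 12.8% of all tested genes. Neither passed the test with the correction, at 0.08 (edgeR adjusted p = 0.636) and 0.28 (edgeR adjusted p = 0.0629). Trove2, which encodes Ro60, and Ssb, which encodes the La protein, rose with time in obese hosts by 2.51 and 3.83 on the log2 scale and in lean hosts by 1.58 and 2.64. In obese hosts the levels of the Y RNAs went the other way over the same time. With the correction the value of Ssb in obese hosts was 1.45, and that of Trove2 turned to -0.74. In all, 4 of the 7 rose and 3 fell in obese hosts, against 37.8% and 36.1% of all tested genes, and 3 rose and 1 fell in lean hosts, against 21.4% and 9.5%.

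Of 13 tested RNA polymerase III subunits, 2 rose and 1 fell at midpoint, against 16.7% and 12.8% of all tested genes, with Polr1c up by 0.61 and Polr3b at a log2 fold change of -0.78. With the correction these were at 0.27 (edgeR adjusted p = 0.183) and -0.54 (edgeR adjusted p = 0.0598). With time in obese hosts 4 rose and 5 fell, where 37.8% and 36.1% of all tested genes did, with Polr3f, Polr3g and Polr3b up by 2.87, 2.17 and 1.29. Polr1c and Polr3c had values of -1.23 and -0.73. In lean hosts 2 rose (Polr3f and Polr3g) and 0 fell, against 21.4% and 9.5%. Of 18 tested promoter factors, with the repressor Maf1 counted among them, 6 rose and 4 fell at midpoint, against 16.7% and 12.8%. Snapc2, Maf1 and Brf2 were up by 0.87, 0.80 and 0.69. Snapc2 and Brf2, and Snapc1 among the genes that fell, are parts of the machinery that recruits the polymerase to promoters of the 7SK type. Parts of this machinery thus went both ways. Zfp143, Gtf3c3 and Snapc1 had values of -1.15, -1.01 and -0.92. None of these 6 passed the test with the correction, at 0.19, 0.29 and 0.27 for Snapc2, Maf1 and Brf2 and at -0.61, -0.35 and -0.26 for Zfp143, Gtf3c3 and Snapc1 (edgeR adjusted p of 0.0507 to 0.303). With it 2 of the 18 rose and 0 fell, where 1863 genes were called in all, 64.5% of them higher. Between the times in obese hosts 9 rose and 8 fell, against 37.8% and 36.1% of all tested genes. Among them Bdp1 was up by 3.04 and Maf1 was at -1.51 (0.74 and -0.46 with the correction). In lean hosts 5 of the 18 rose and 2 fell, against 21.4% and 9.5%.

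Other small RNAs gave a measure of what was common to such transcripts. Of 190 other RNA polymerase III RNAs in the table, 141 had no count in any library and 4 were tested: Rn7s1, Rn7s2 and Rn7s6, related to the RNA of the signal recognition particle, and the vault RNA Vaultrc5. At midpoint 1 of the 4 rose (Rn7s6, by 1.00 ± 0.31 (SE), edgeR adjusted p = 0.0314), against 16.7% of all tested genes, and the median was 0.90. With the correction Rn7s6 was at 0.08 (edgeR adjusted p = 0.812) and the median at -0.13. With time in obese hosts all 4 fell, where 36.1% of all tested genes did, with a median log2 fold change of -1.58. With the correction the median was 0.23, 1 rose and 0 fell, where 9005 genes were called in all, 48.5% of them higher. There were 11 tested small nuclear RNAs (with the U3 RNAs and the telomerase RNA Terc), which RNA polymerase II makes. Of these, 1 rose at midpoint (Rnu3b2, by 1.12), against 16.7% of all tested genes, with a median of 0.61. With time in obese hosts 9 of the 11 fell, with Terc, Rnu11 and Rnu3a at -2.24, -2.18 and -1.95, and in lean hosts 5 fell, where 36.1% and 9.5% of all tested genes fell. With the correction 5 of the 11 fell in obese hosts, among the 9005 genes called, and Terc was at -0.16 (edgeR adjusted p = 0.510). Of 72 tested small nucleolar and Cajal body RNAs, 12 rose and 0 fell at midpoint, against 16.7% and 12.8% of all tested genes. The share called as higher was that of all genes, but 60 of the 72 lay above 0. Their median was 0.53, and 0.30 with the correction. Of the same 72, 10 rose and 33 fell with time in obese hosts, against 37.8% and 36.1%. There 54 of the 72 lay below 0, with a median of -0.62, and -0.46 with the correction.

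**Figure D5:**
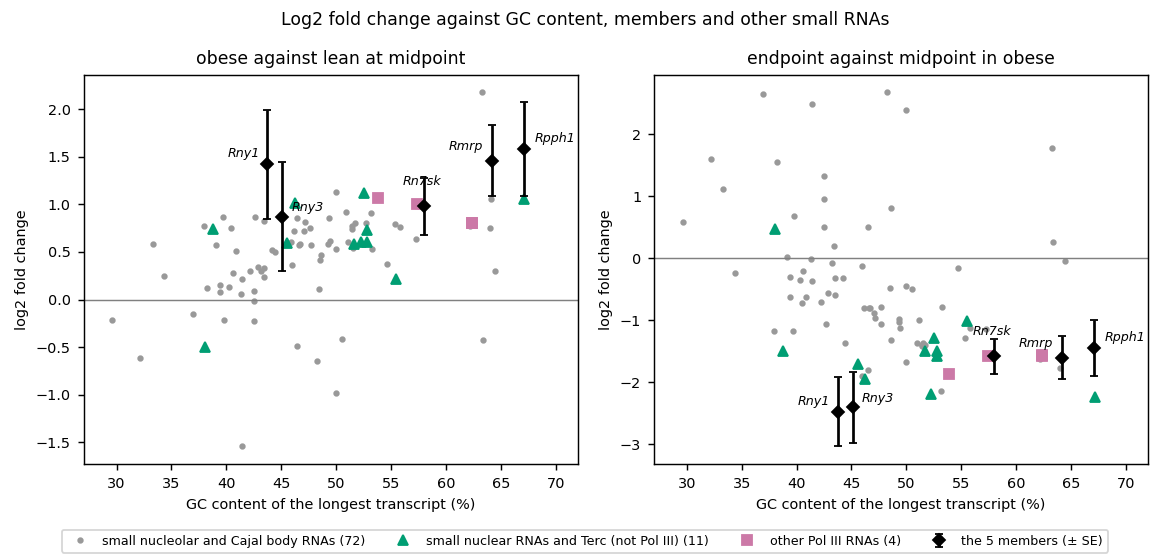
Log2 fold change (vertical axis) against the GC content of the transcript (horizontal axis, %) for the 5 members (black, ± SE) and the tested RNAs of 3 lists of other small RNAs, at midpoint between the diets and with time in obese hosts. Rny1 and Rny3 lie at 1.42 and 0.87 at midpoint and at -2.47 and -2.40 with time.

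At endpoint 0 of the 143 tested genes of these 8 lists were called between the diets by edgeR's quasi-likelihood test, 0 by DESeq2, and 5 had an unadjusted p under 0.05. The midpoint calls of list genes, and those of the neighbours Parp2 and Ccdc107, rest on a contrast in which 4825 genes were called with all libraries. There 0 genes were called when any 1 of lean midpoint replicates 2 or 3 or obese midpoint replicates 2 or 3 was left out.

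The genes most like each RNA over the 18 libraries, by Pearson correlation of log2 CPM among 14249 genes, differed between the members. For Rn7sk they were Ubald1 (0.981), Eef2 (0.979) and the Cajal body RNA Scarna13 (0.979). For Rpph1 they were H2afj (0.951), Romo1 (0.946) and Hist1h4h (0.945), and for Rmrp Dpm3 (0.908), Rab4b (0.902) and Tha1 (0.895). For Rny1 the closest was another small RNA, the U3 RNA Rnu3a (0.951), followed by Tctn2 and S100a11 (0.879 each). Without lean endpoint replicate 1, left out here after the data were seen, the correlation of Rny1 with Rnu3a was 0.963. For Rny3 they were Sugp1 (0.945), Tnfsf12 (0.927) and Afg3l1 (0.923). The libraries share their depth, scaling and GC slope, so these correlations are descriptions with no test.

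Summed markers of other cell types were low beside Rn7sk and moved between groups. The 9 pan-leukocyte markers summed to 143 to 298 CPM in lean midpoint, 105 to 169 in obese midpoint, 101 to 171 in lean endpoint and 85.4 to 290 CPM in obese endpoint, and none of the 9 was at 0 in all libraries. The 8 fibroblast markers summed to 905 to 2713 CPM over all libraries; Col3a1 and Pdgfra, with means of 1689 and 283 CPM, carried this sum, while others of the 8 were low, such as Col1a1 and Fap with means of 5.30 and 0.142 CPM. Obese midpoint replicates 2 and 3, the highest in Rn7sk, had the lowest of these sums in their group (1132 and 905 CPM), but replicate 5, also high in Rn7sk, had the highest (2713 CPM). The part of other cells in these levels was not tested.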

How the data were processed

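The data were RNA-sequencing counts per gene from 19 libraries of sorted tumor cells, of which 18 were used. The authors deposited whole-number counts, not normalized; per the submitters' processing notes the genome build was mm10 and the tools were TopHat and DESeq, without versions or roles. How reads were counted and stranded, and how RNA was selected for the libraries, is not given in the sources used here. Gene lengths were taken as deposited, per the file headers, and symbols matched for 37607 of 39017 genes. Each library's depth was 44174080 to 56996252 counts, and shares of counts carry Wilson intervals at 95%, which cover counting error only.

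Shares and CPM were computed from the deposited counts. edgeR 4.0.16 (R 4.3.3) with TMM scaling, filterByExpr and a mean per group was fitted to the 16352 genes kept, and its quasi-likelihood test was adjusted by Benjamini-Hochberg at 0.05. The standard error (SE) of a log2 fold change is its size over the root of F. On simulated data for obese against lean at endpoint over 15910 genes, the test recovered 67 of 99 genes changed 2-fold and 97 of 97 changed 4-fold, with 12 false calls. The simulation gave every gene the same dispersion of 0.05 and no GC slope or mitochondrial shift between libraries. It therefore does not measure the power for genes with a larger spread, such as Rny1 (SE 0.57 at endpoint). The alternatives were RLE scaling, 2 other filters, DESeq2 1.42.0, the replicate number as a block, a loess correction of each library for gene GC content and length (16122 genes with a value, 98.6%), a fit without mitochondrial genes, and leaving out each library. A scaling without the members and mitochondrial genes was added after seeing the data.

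The 5 members and all gene lists were chosen with earlier results of these data known. Since the members were noticed for their values at midpoint, a p-value is given for them only for obese against lean at endpoint, whose groups share no library with midpoint. The spread of each gene was estimated over all libraries used, so the SE and p-value at endpoint also draw on the midpoint libraries. Genes were named by a rule: the members, genes within 5000 bases of a member, up to 3 genes per list, direction and contrast with the greatest change past the threshold, and the 3 genes most like each member. Not every gene that this rule names is reported here. Lean endpoint replicate 4 was left out: its 11889188 counts stop on chromosome 5, and it had no count for any of the 8411 genes of later chromosomes that averaged 50 counts or more across the rest of its group. The labels describe separate tumors, and the chi-square per degree of freedom was at least 38.8 in each of 32 pairs of libraries of 1 group, so none was counted as a repeat of another.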

Additional observations from a re-analysis of the deposited data

Results flagged for a closer look

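Within groups of 4 or 5 libraries, 36 sets of member levels and ratios were checked for a single library lying far from the others by Dixon's criterion, and 4 stood out, where chance gives about 1 in 20. In lean endpoint, replicate 1 had 44.1 Rmrp counts per 1000 Rpph1 counts and 647 Rny1 counts per 1000000 Rn7sk counts, both far above the other 3 libraries of the group. In lean midpoint, replicate 1 had 7.99 Rmrp counts per 1000 Rpph1 counts, below the 8.69 to 8.80 of the others, and replicate 4 had 1.60 Rny3 counts per Rny1 count, where the others had 0.885 to 0.943.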

How the results depend on the processing

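Replicate numbers did not pair the libraries: deviations of same-numbered libraries correlated between -0.403 and -0.178 at midpoint and between -0.0263 and 0.551 at endpoint. With the replicate block, 0 genes were called at endpoint and Rpph1 gave 0.11 there. DESeq2 called 8. With the GC and length correction 1863 genes were called at midpoint (64.5% of them higher, against 56.5% without it; 33.2% with no filter on low counts, 42.2% without mitochondrial genes, 43.8% with the replicate block), and in lean hosts with time 51.2% were higher against 69.2% (52.1% without mitochondrial genes, 59.2% with the filter of 5 CPM in 4 libraries). The correction gave -0.011, 0.12 and 0.10 for Rn7sk, Rpph1 and Rmrp at midpoint, 0.055 for Rpph1 at endpoint, 0.27 and 1.25 for Rn7sk and Rmrp in lean hosts with time, and 0.13, 0.75 and 0.54 for Rn7sk, Rpph1 and Rmrp in obese hosts with time; beyond the correction's own construction the cause was not tested. It also turned the sign of Rpp21 (-0.055) and Snora78 (-0.33) at midpoint, of Ccdc107 (0.026), Pou2f1 (-0.077), Snora19 (-0.076) and Trove2 (-0.24) in lean hosts, and of Ccnt2 (-0.15), Mepce (0.022), Rn7s2 (0.39), Rn7s6 (0.11) and Trove2 (-0.74) in obese hosts. Parp2 at endpoint was 0.047 with RLE scaling, 0.046 with no filter, 0.055 with the correction, 0.045 with DESeq2, 0.044 with the filter of 5 CPM, 0.042 without mitochondrial genes, 0.026 with the replicate block and 0.058 without the members and mitochondrial genes. As a share of counts outside the mitochondrial genome, Rn7sk, Rpph1 and Rmrp took 1.74%, 0.653% and 0.00461% in obese endpoint. Leaving out single libraries gave 0 to 7946 called genes at midpoint, 0 to 1 at endpoint and 3251 to 6388 in lean hosts with time, log2 fold changes of -0.51 to 0.14 for Rpph1 and -0.088 to 0.15 for Parp2 at endpoint, and 0.032 to 1.45 for Rny1 and -1.03 to 0.62 for Rny3 in lean hosts with time. Counts of 8 (Rny1) and 13 (Rny3) in obese endpoint replicate 4 limit the Y RNA values. The correction is limited by its assumption that GC and length parts add, on which few short GC-rich genes bear.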
